A study of Mus musculus with 20 samples.

Results

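The fast-twitch fibre genes described here were 10 rows of a count table with 54532 genes, chosen by name: the myosin heavy chains *Myh1*, *Myh2* and *Myh4*, the light chain *Mylpf*, the fast troponins *Tnnt3*, *Tnni2* and *Tnnc2*, the Z-disc protein *Actn3*, the calcium pump *Atp2a1* and the calcium buffer *Pvalb*. The RNA came from mouse temporomandibular joint (TMJ) tissue, the hinge between the lower jaw and the skull. According to the methods, condylar heads were taken for RNA-seq together with part of the subchondral bone. All animals were *Acan-Cre;Loxl2* fl/fl mice, with both *Loxl2* alleles floxed and a tamoxifen-inducible Cre driven from the aggrecan promoter, which is active in cartilage cells and not in muscle fibres. Animals were 6 months old at the first injection and were given vehicle (Control, 8 libraries) or tamoxifen (labelled knockout, 12 libraries) on 5 consecutive days and then monthly, with tissue taken after 4 months. Tamoxifen itself and the deletion cannot be told apart, since no Cre-negative group received tamoxifen in the samples used here.

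Skeletal muscle fibres differ in speed through the isoforms they build. Fast fibres use *Myh2* (type IIa), *Myh1* (type IIx) or *Myh4* (type IIb), in order of rising contraction speed, together with fast troponins, and clear calcium quickly through the SERCA1 pump (*Atp2a1*) and parvalbumin (*Pvalb*). Slow fibres use *Myh7* with slow troponins and the SERCA2 pump (*Atp2a2*). The jaw muscles of the mouse consist largely of fast fibres, and some attach close to the joint. Which muscle the RNA came from is not given in the sources used here. Cartilage and bone cells do not make sarcomeres.

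Libraries held 11153820 to 27045668 counts. *Loxl2*, the targeted gene, was at 16 CPM (counts scaled to library size) in the lowest Control library, at a median of 70.3 and at 103 in the highest, and at 28.8, 110 and 126 CPM in the libraries labelled knockout. It was not lower there (log2 fold change 0.64, SE 0.28, adjusted p = 0.101, edgeR quasi-likelihood test with Benjamini-Hochberg adjustment). A count over the whole gene in mixed tissue does not show which exons were lost in cartilage cells, and every direction below is that of the labels. Control replicate 8 stood apart, with chondrocyte markers summing to 41.6 CPM against a Control median of 1800 CPM, and with the highest level of 8 of the 10 fast-twitch genes among the Control libraries. Control replicate 6 was also low in chondrocyte markers, at 195 CPM, and the other Control libraries held 1380 CPM or more. Y-linked transcripts (*Ddx3y*, *Uty*, *Kdm5d*, *Eif2s3y*) summed to at least 101 CPM in 9 libraries, 3 Control and 6 labelled knockout, and to at most 0.596 CPM in the other 11. The methods describe equal numbers of both sexes, so the Control count of 3 of 8 goes against that balance in 1 library.

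Transcripts of the 10 genes took 4.09% to 9.36% of all counts in Control libraries and 2.81% to 6.04% in the libraries labelled knockout. Scaled for exon length, *Tnnt3*, the tropomyosin-binding fast troponin, stood highest in Control libraries, with a median of 6650 CPM per kilobase. *Mylpf* (3935), *Tnni2* (3725) and *Atp2a1* (3380) followed at medians whose ranges overlapped, and *Mylpf* exceeded *Tnni2* in 3 of 8 Control libraries. *Myh1* (2380), *Pvalb* (1880) and *Myh2* (1275 CPM per kilobase) came next, again with overlapping ranges. *Actn3* (193) and *Myh4* (63.5 CPM per kilobase) were the low members of the median order, although *Myh4* reached 3330 CPM per kilobase in Control replicate 8. The order in the libraries labelled knockout differed only in that *Tnni2* (2570) stood above *Mylpf* (2410 CPM per kilobase).

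*Tnnc2*, the fast calcium-binding troponin, could not be read from these counts. It had 3 to 31 counts per library, or 0.246 to 2.01 CPM, while its partner *Tnni2* was at 2642 CPM or more in every library. Exons of *Ube2c* on the opposite strand cover 74.0% of its exon bases (chr2:164777161-164779967, minus strand, GRCm38). Whether reads were counted by strand was not given in the sources used here, and the part of the overlap in the low counts was not tested. Its log2 fold change was -0.45 (SE 0.40, adjusted p = 0.436, edgeR). The other overlaps were smaller, 21.9% of *Atp2a1* exon bases with *Rabep2*, 8.1% of *Myh1* with *Myhas* and 3.3% of *Myh2* with *9430073C21Rik*.

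All 10 fast-twitch genes had lower fitted levels in the libraries labelled knockout, and 4 passed the test: *Pvalb*, *Atp2a1*, *Actn3* and *Mylpf*. The 10 include *Tnnc2*, whose scarce counts could not be read. Its median was higher in the libraries labelled knockout, at 0.643 CPM against 0.545 CPM in Control libraries. Of all 15984 genes tested, 1755 (11%) passed as lower and 1918 (12.0%) as higher. The median log2 fold change of the 10 genes, *Tnnc2* included, was -0.64, against -0.018 over all genes. These are bulk samples, in which fewer muscle fibres and less RNA per fibre cannot be told apart.

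**Figure D1:**
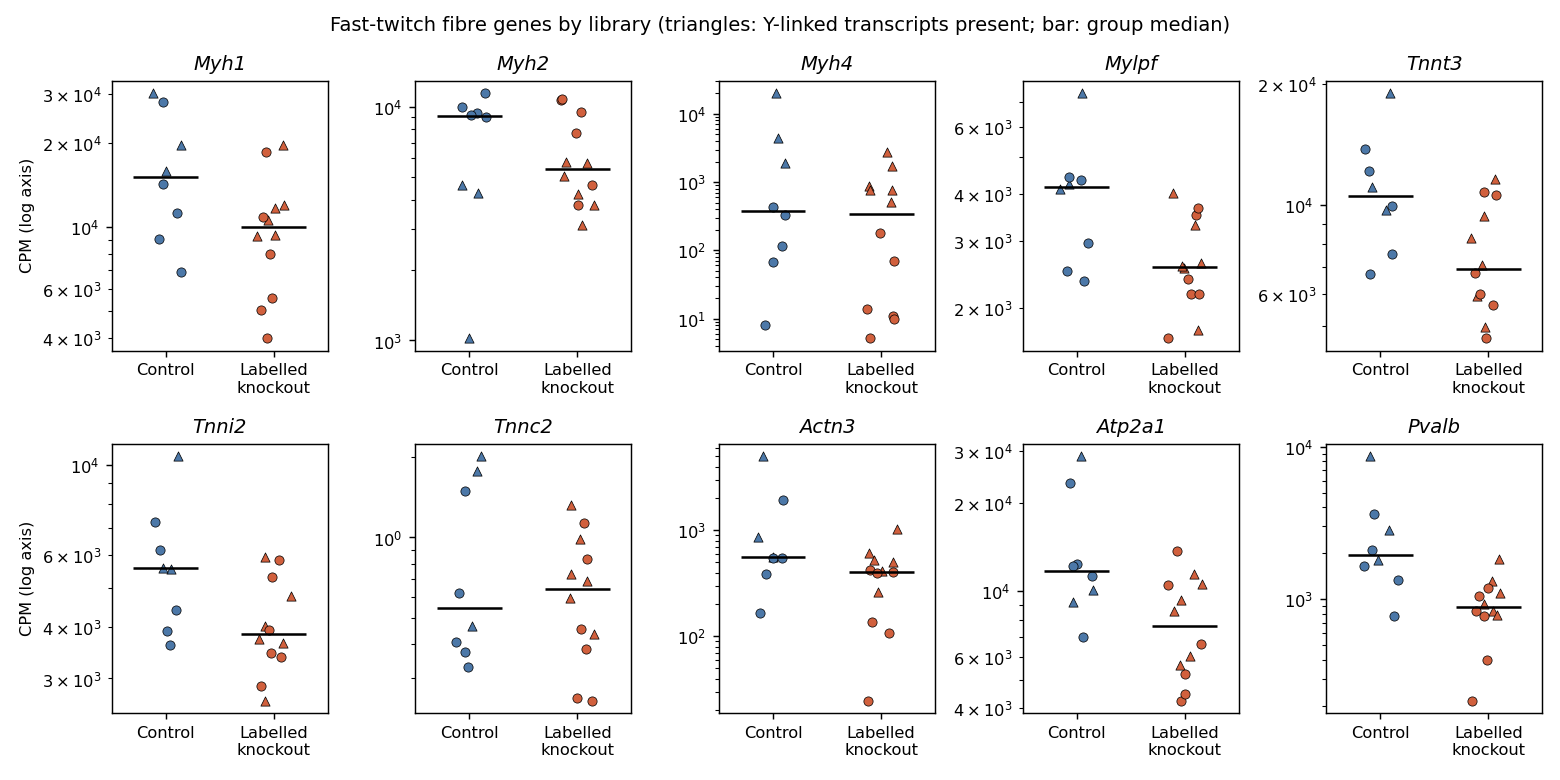
Level of each of the 10 fast-twitch fibre genes in CPM (log axes that differ between panels) in the 8 Control libraries and the 12 libraries labelled knockout, with the group median as a bar; triangles are libraries with Y-linked transcripts and circles those without. Every gene overlaps between groups, Control replicate 8 is the highest point in 8 of the 10 panels, and triangles lie above circles in the *Myh4* panel.

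The calcium-handling members had the smallest adjusted p values. *Pvalb*, the cytosolic buffer that speeds relaxation, was at 772 CPM in the lowest Control library, at a median of 1954 and at 8688 CPM in the highest. In the libraries labelled knockout it was at 215, 883 and 1836 CPM. The groups overlapped, but all 12 libraries labelled knockout lay below the Control median and 4 Control libraries lay above all of them (log2 fold change -1.61, SE 0.37, adjusted p = 0.00565, edgeR). *Atp2a1*, which pumps calcium back into the sarcoplasmic reticulum, ranged from 7002 through a median of 11761 to 28891 CPM in Control libraries and from 4226 through 7613 to 13749 CPM in those labelled knockout. Its level was below the Control median in 11 of 12 libraries, and the 2 highest Control libraries exceeded every library labelled knockout (log2 fold change -0.83, SE 0.27, adjusted p = 0.0334, edgeR).

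Among the sarcomere members, *Actn3*, which anchors actin filaments at the Z-disc of fast fibres, ranged widely in both groups. It was at 165, 560 and 5028 CPM (lowest, median, highest) in Control libraries and at 24.5, 408 and 1024 CPM in the libraries labelled knockout. Medians were closer than means, and 10 of 12 libraries labelled knockout lay below the Control median (log2 fold change -1.64, SE 0.56, adjusted p = 0.0393, edgeR). *Mylpf*, the regulatory light chain of fast myosin, was at 2349, 4178 and 7375 CPM in Control libraries and at 1656, 2562 and 4031 CPM in those labelled knockout. Here all 12 lay below the Control median and 5 of 8 Control libraries lay above all 12 (log2 fold change -0.58, SE 0.21, adjusted p = 0.0473, edgeR).

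The fast troponins *Tnnt3* and *Tnni2*, which hold the thin filament off until calcium binds, missed the threshold. *Tnnt3* was at 6744, 10523 and 19006 CPM in Control libraries and at 4661, 6929 and 11601 CPM in the libraries labelled knockout (log2 fold change -0.56, SE 0.21, adjusted p = 0.0623, edgeR). *Tnni2* was at 3622, 5581 and 10460 CPM and at 2642, 3847 and 5933 CPM (log2 fold change -0.51, SE 0.20, adjusted p = 0.068, edgeR). Both overlapped between the groups, with 3 Control libraries above all libraries labelled knockout.

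Control replicate 8 weighed on these calls. Without it, *Pvalb* alone passed (log2 fold change -1.09, SE 0.31, adjusted p = 0.0234, edgeR), where 6.08% of all genes passed as lower, and all 10 fitted changes remained negative. *Actn3* then had -0.82 (adjusted p = 0.262), *Atp2a1* -0.59 (0.119) and *Mylpf* -0.39 (0.162), on the log2 scale in edgeR. Leaving out other single libraries also moved the count of 4: it was 1 without Control replicate 4 or without replicate 2, 7 or 10 labelled knockout, 2 without replicate 1, 6 or 8 labelled knockout, and 7 without replicate 5 labelled knockout. It was also above 4 without Control replicate 1 or 5, or without replicate 12 labelled knockout. Calls over all genes moved too. Against 1755 of 15984 genes lower with all libraries, 1872 of 16085, 1251 of 16153 and 1924 of 16207 were lower without Control replicate 1, 4 or 5. Without replicate 2, 7 or 10 labelled knockout the counts were 1401 of 15831, 1469 of 15902 and 1497 of 15914. Without replicate 1, 6 or 8 labelled knockout they were 1518 of 15851, 1579 of 15831 and 1447 of 15897. Without replicate 5 or 12 labelled knockout they were 2038 of 15912 and 1940 of 15901.

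The fast-twitch genes moved with sarcomere genes that all fibres share. A list of 19 sarcomere genes used by all fibres, such as *Ttn*, *Neb* and *Acta1*, had a mean log2 CPM of 9.64 to 10.84 in Control libraries (median 10.1) and of 9.22 to 10.3 in those labelled knockout (median 9.76), and 8 of the 19 passed as lower (median log2 fold change -0.45). With this mean as a covariate in edgeR, none of the 10 fast-twitch genes passed, nor did any have an unadjusted p under 0.05, while 571 of 15984 genes (3.57%) passed in either direction. The fitted changes at equal sarcomere level were -0.54 for *Pvalb* (SE 0.34, adjusted p = 0.375), -0.14 for *Atp2a1* (0.18, 0.703), 0.08 for *Actn3* (0.59, 0.955) and -0.02 for *Mylpf* (0.10, 0.935), in log2 units. Bone-cell markers moved the other way over the same libraries. In the fit without the covariate, 6 of 6 osteoclast markers and 5 of 7 osteoblast and osteocyte markers passed as higher, against 12.0% of all genes. Osteoclast markers summed to 83.1 to 943 CPM in Control libraries and to 435 to 5360 CPM in those labelled knockout. Osteoblast and osteocyte markers summed to 1200 to 11600 CPM and to 3890 to 37600 CPM. The tendon marker *Tnmd* also passed as higher (log2 fold change 0.67, SE 0.21, adjusted p = 0.0232, edgeR), 1 of 3 tendon markers. Mitochondrial transcripts took a median of 17.4% of counts in Control libraries and 13.1% in those labelled knockout. The part of these measures in the lower muscle levels was not tested.

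**Figure D2:**
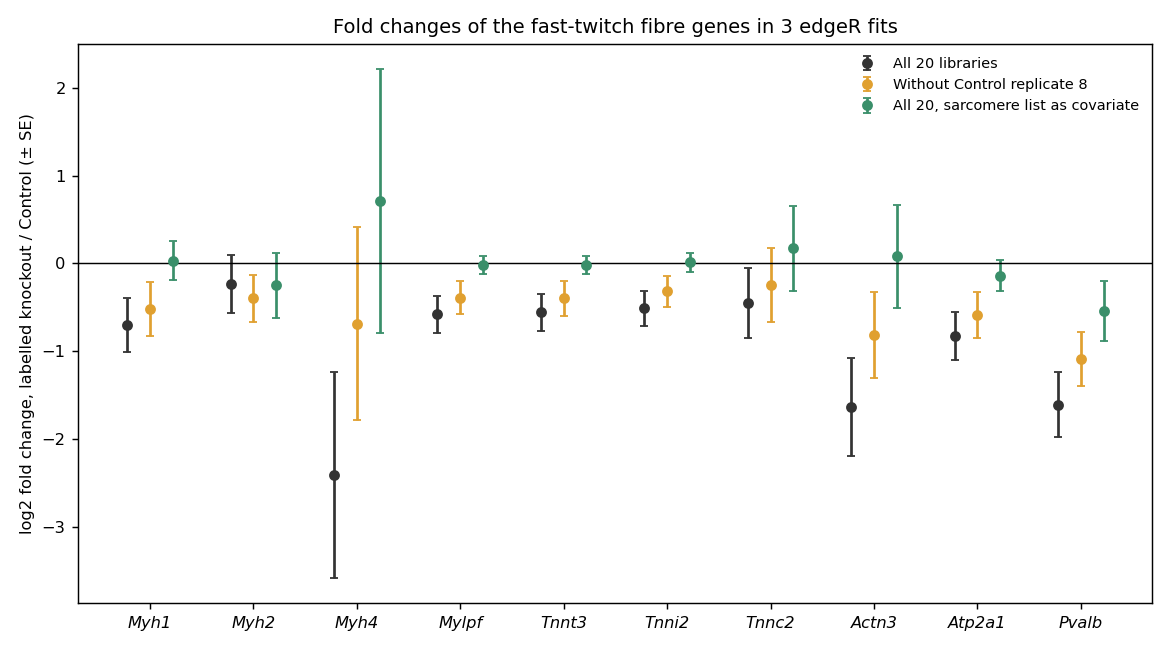
Log2 fold change of each gene, labelled knockout over Control, with its SE, in edgeR fits on all 20 libraries (black), without Control replicate 8 (yellow) and with the mean of 19 sarcomere genes as covariate (green). The black points are all below 0, from -0.24 for *Myh2* to -2.41 for *Myh4*, and in green *Mylpf*, *Tnnt3* and *Tnni2* lie within 0.02 of 0.

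**Figure D3:**
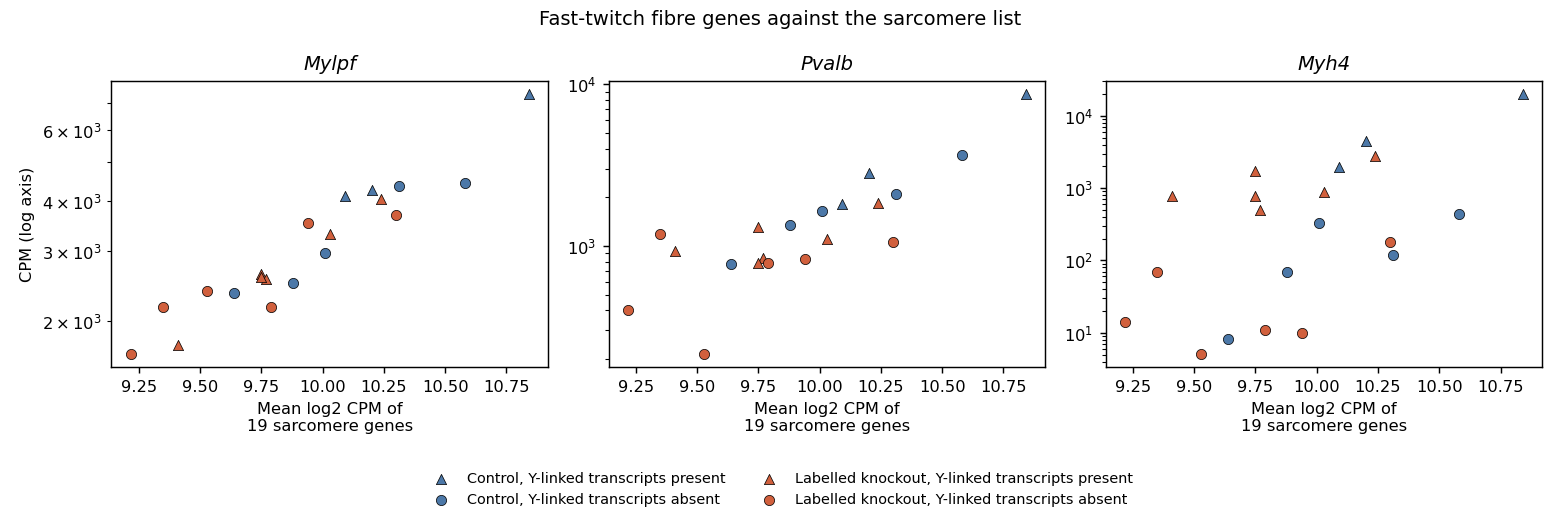
CPM (log axis) of *Mylpf*, *Pvalb* and *Myh4* against the mean log2 CPM of 19 sarcomere genes, 1 point per library, with Control in blue, labelled knockout in orange, and triangles for libraries with Y-linked transcripts. *Mylpf* and *Pvalb* rise along the axis in both groups, while *Myh4* splits into triangles at 506 CPM or more and circles at 438 CPM or less.

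The 3 fast myosin heavy chains behaved differently from one another. *Myh1* was at 6882, 15126 and 30123 CPM in Control libraries and at 3990, 9976 and 19596 CPM in those labelled knockout, with 10 of 12 below the Control median (log2 fold change -0.70, SE 0.31, adjusted p = 0.101, edgeR). *Myh2* was at 1020, 9095 and 11434 CPM and at 3118, 5414 and 10752 CPM (log2 fold change -0.24, SE 0.33, adjusted p = 0.635). *Myh4* had nearly equal medians, 382 CPM in Control libraries and 342 CPM in those labelled knockout, within ranges of 8.11 to 20036 CPM and 5.10 to 2794 CPM (log2 fold change -2.41, SE 1.17, adjusted p = 0.137). Without Control replicate 8 the *Myh4* value was -0.69 (SE 1.10, adjusted p = 0.713, edgeR).

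*Myh4* followed the presence of Y-linked transcripts. The 9 libraries with them held 506 to 20036 CPM (median 1717) and the 11 libraries without held 5.10 to 438 CPM (median 68.2), with no overlap. In Control libraries the medians were 4459 and 117 CPM, and in those labelled knockout 824 and 12.4 CPM. A term for Y-linked transcripts beside the group, chosen after the data were seen, gave *Myh4* a log2 difference of 5.03 (SE 0.76, adjusted p = 0.00205, edgeR), in a test that called 0.144% of genes, the Y-linked genes among them. *Myh4* was the 1 of the 10 genes called. At equal sarcomere level its difference was 4.54 (SE 0.62, adjusted p = 0.000844), where 0.131% of genes were called. *Myh2* had the opposite sign, -1.06 (SE 0.27, p = 0.000708, adjusted p = 0.195, edgeR), and was at 1020 to 5796 CPM in libraries with Y-linked transcripts and at 3810 to 11434 CPM in those without. *Myh1* had 0.55 (SE 0.29, adjusted p = 0.648), and *Tnnt3*, *Tnni2*, *Mylpf* and *Atp2a1* had 0.20 to 0.33. Larger values that also failed the adjustment belonged to *Actn3* (1.32, SE 0.49, p = 0.0144, adjusted p = 0.531), *Pvalb* (0.86, SE 0.33, p = 0.0172, adjusted p = 0.54) and *Tnnc2* (0.77, SE 0.37, p = 0.0495, adjusted p = 0.598), in edgeR.

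With the level of the Y-linked genes as a covariate, *Myh4* passed as lower in the libraries labelled knockout (log2 fold change -2.18, SE 0.66, adjusted p = 0.0211, edgeR). *Pvalb*, *Actn3*, *Atp2a1* and *Mylpf* passed in this fit too, and 1818 of 15984 genes passed as lower. The fit was not repeated without Control replicate 8. With the sarcomere list and an indicator of Y-linked transcripts as covariates together, *Myh4* did not pass (-0.92, SE 0.73, adjusted p = 0.519). Within the 9 libraries with Y-linked transcripts its change was -2.84 (SE 0.70, adjusted p = 0.053) and within the 11 without it was -2.01 (SE 1.01, adjusted p = 0.278). *Pvalb* had -1.98 (SE 0.45, adjusted p = 0.051) and -1.35 (SE 0.45, adjusted p = 0.124) in the same subsets, in edgeR. None of the 10 genes passed within either subset in edgeR, where few or no genes did: 79 of 16431 (0.481%) passed as lower in the libraries with Y-linked transcripts and 0 of 16109 (0%) in those without, although 3377 of the latter had an unadjusted p under 0.05. These counts therefore say nothing particular about the 10 genes.

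*Myh2*, *Myh1* and *Myh4* lie next to each other on the plus strand of chromosome 11 (GRCm38), at chr11:67171027-67197517, chr11:67200052-67224575 and chr11:67238029-67260446, with 2534 and 13453 bases between them. Their coding transcripts are alike: 25.75% of the 50-base windows of *Myh2*, 25.27% of *Myh1* and 18.59% of *Myh4* occur exactly in another myosin heavy chain gene, so part of their reads could have been assigned to a neighbour or dropped. The bases just before their RefSeq starts (GRCm38.p6, plus strand) are shown because these neighbours differed in level between libraries. RefSeq places the starts at 67171027 for *Myh2*, 67200102 for *Myh1* and 67237812 for *Myh4*. For *Myh1* and *Myh4* these differ from the GENCODE M21 gene starts given above, and the end of the *Myh1* stretch lies inside the GENCODE gene. Capitals mark the motifs found among TATAAA, the E-box CANNTG, the MEF2 motif and the CArG box, searched on both strands.
*Myh2*, chr11:67170907-67171026: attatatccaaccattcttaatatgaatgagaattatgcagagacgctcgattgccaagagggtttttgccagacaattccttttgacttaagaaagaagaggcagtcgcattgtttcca
*Myh1*, chr11:67199982-67200101: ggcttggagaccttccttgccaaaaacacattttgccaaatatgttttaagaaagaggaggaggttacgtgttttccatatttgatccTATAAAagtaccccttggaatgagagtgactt
*Myh4*, chr11:67237692-67237811: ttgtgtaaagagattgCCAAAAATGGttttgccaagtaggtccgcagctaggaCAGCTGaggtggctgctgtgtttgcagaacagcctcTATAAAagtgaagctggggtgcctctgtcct

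TATAAA began at base -32 from the RefSeq start in *Myh1* and at base -31 in *Myh4*, and was not in the 250 bases before *Myh2*. *Myh4* also held a CArG box from base -104 and an E-box from base -67 in the stretch shown. Over 32851 RefSeq promoters of 250 bases, 12.4% held TATAAA, 66.2% an E-box, 2.92% a MEF2 motif and 1.47% a CArG box. The MEF2 motif and TATAAA can share bases. Promoters were listed for 7 of the 10 genes. A match describes the letters in the window only.

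Expressed as shares of the 4 myosin heavy chains of adult fast and slow fibres (counts per kilobase), *Myh1* made up 60.8% ± 11.5 (SD, n = 8) in Control libraries and 61.0% ± 13.8 (n = 12) in those labelled knockout. *Myh2* made up 30.2% ± 18.9 and 35.3% ± 16.4, and *Myh4* 8.96% ± 14.3 and 3.72% ± 4.40. The slow chain *Myh7* made up 0.0200% ± 0.0246 and 0.0437% ± 0.0726. None of these differed between the groups beyond the spread (adjusted p = 0.979, 0.762, 0.762 and 0.762, exact two-sided permutation tests over 125970 assignments, adjusted over 8 shares). The *Myh4* share was 3.72% to 40.5% in libraries with Y-linked transcripts and 0.0433% to 1.76% in those without. The *Myh2* share was 1.74% to 31.4% and 22.6% to 67.7%.

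**Figure D4:**
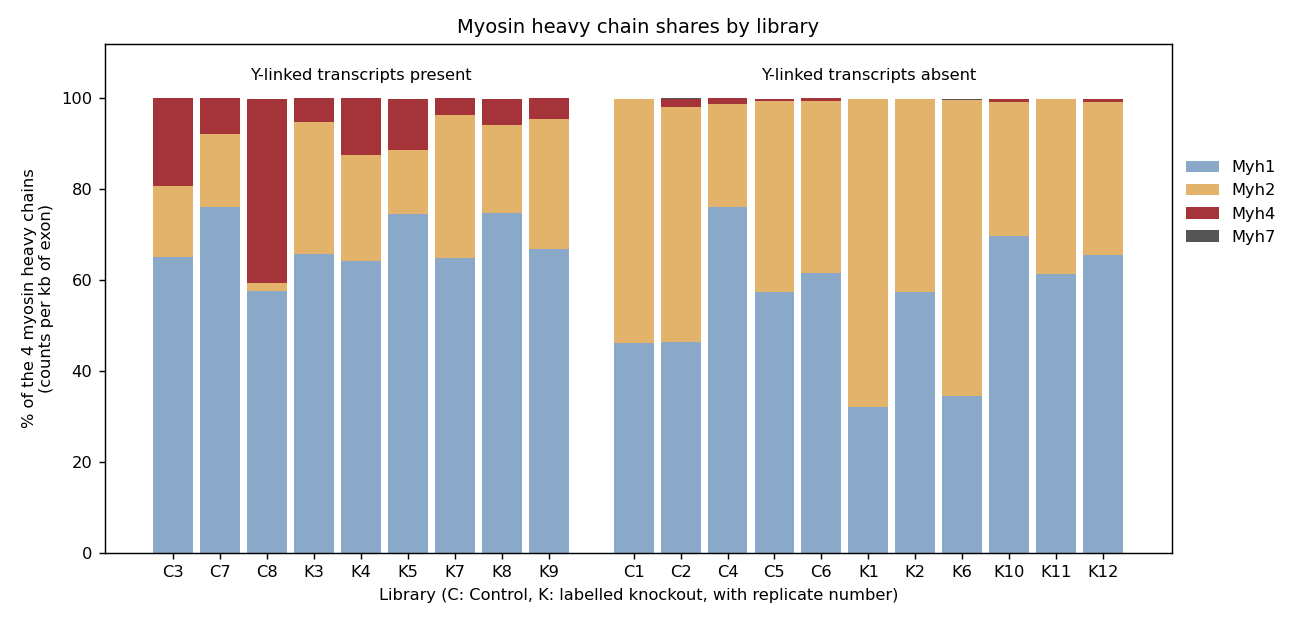
Share of *Myh1*, *Myh2*, *Myh4* and *Myh7* in the sum of the 4 (percent of counts per kilobase of exon), 1 bar per library, with libraries that hold Y-linked transcripts on the left. *Myh4* (red) takes 3.72% to 40.5% in the 9 bars on the left and at most 1.76% in the 11 on the right, and *Myh7* is too small to see.

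The slow partners of the fast isoforms were scarce in both groups. *Tnnt1*, the slow partner of *Tnnt3*, supplied 0.0104% to 0.214% of the pair in Control libraries and 0.0126% to 0.211% in those labelled knockout. *Tnni1*, the slow partner of *Tnni2*, supplied 0.00517% to 0.194% and 0.00478% to 0.640%. *Atp2a1* made up 99.1% ± 0.469 (SD, n = 8) of the SERCA pair in Control libraries and 98.3% ± 0.605 (n = 12) in those labelled knockout, a difference of -0.732 percentage points that missed the threshold after adjustment (p = 0.00994, adjusted p = 0.0795, exact permutation test). *Atp2a2*, which other cell types also use, was itself at 123 to 267 CPM and at 165 to 300 CPM (log2 fold change 0.15, SE 0.14, adjusted p = 0.448, edgeR). *Tnnc2* with *Tnnc1* reached 50 counts in 2 libraries of each group, with mean *Tnnc2* shares of 29.0% and 42.7% (p = 0.667, adjusted p = 0.762, exact permutation test over 6 assignments), a design too small to pass the threshold.

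Other muscle genes were lower alongside. Of 16 excitation-contraction coupling genes, which carry the signal from the membrane to calcium release, 14 passed as lower (median log2 fold change -0.76), among them *Cacna2d1* (-0.78, SE 0.14, adjusted p = 0.00128, edgeR) and *Stac3* (-0.75, SE 0.15, adjusted p = 0.00255). Of 10 genes of glycolysis, glycogen breakdown and phosphagen supply, 7 passed as lower (median -0.63), led by *Ampd1*, the muscle AMP deaminase (-1.29, SE 0.29, adjusted p = 0.00468), and *Phkg1*, a phosphorylase kinase subunit (-0.86, SE 0.22, adjusted p = 0.00891). Of 6 further fast sarcomere genes, 5 were tested and 3 passed as lower (median -0.81), led by *Tmod4*, which caps thin filaments (-0.81, SE 0.18, adjusted p = 0.00403), and *Myoz1*, a Z-disc protein (-0.99, SE 0.30, adjusted p = 0.0231). In the sarcomere list of all fibres the smallest p belonged to *Smyd1* (-0.63, SE 0.16, adjusted p = 0.0079) and the myosin chaperone *Unc45b* (-0.70, SE 0.18, adjusted p = 0.00849).

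Slow-fibre genes did not share a direction. Of 10, 1 passed as lower (*Casq2*, the slow and cardiac calsequestrin, -0.61, SE 0.22, adjusted p = 0.0497, edgeR) and 1 as higher (*Tpm3*, a tropomyosin also made outside muscle, 0.50, SE 0.17, adjusted p = 0.04), with a median of 0.18. With 1 library left out, *Casq2* passed in 4 of 20 fits and *Tpm3* in 7 of 20. None of the 3 developmental sarcomere genes passed in edgeR, and none had an unadjusted p under 0.05; *Myh8* had -0.64 (SE 0.47, adjusted p = 0.333) and *Myl4* 0.26 (SE 0.30, adjusted p = 0.57). Of 17 regulators of fibre type and muscle identity, 7 passed as lower and 1 as higher (median -0.36). *Six4*, a homeobox factor of muscle, had -0.50 (SE 0.11, adjusted p = 0.00467) and *Nfatc1*, a calcineurin-responsive factor that osteoclasts also use, had 0.55 (SE 0.14, adjusted p = 0.0092). Over these 7 lists, 40 of 80 tested genes passed as lower and 2 as higher. Without Control replicate 8 the counts were 22 and 1.

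Markers of other contractile tissue were low or did not pass. Of 5 smooth muscle markers none passed in edgeR, and none had an unadjusted p under 0.05. Their sum was 256 to 433 CPM in Control libraries and 193 to 413 CPM in those labelled knockout. Cardiac markers summed to at most 29.1 CPM, and 2 of 5 were tested, with none passing in edgeR and none with an unadjusted p under 0.05. Of 7 chondrocyte markers, 5 were tested and none passed, with 0 at an unadjusted p under 0.05.

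Across the 20 libraries, with group means removed, *Mylpf*, *Tnnt3* and *Tnni2* rose and fell together (Pearson r of log2 CPM 0.95 to 0.97), as did *Actn3* and *Pvalb* (0.95). *Myh2* correlated negatively with each of the other 9 genes (-0.19 to -0.68). These are descriptions over libraries that differed in depth and in the level of the sarcomere list (mean log2 CPM 9.22 to 10.84). The part of either in the correlations was not tested. Among protein-coding genes outside the muscle lists, those most alike to the mean profile of the 10 genes were *Rxrg* (0.93), *Shisa2* (0.92), *Nt5dc3*, *Ppp1r14c*, *Kcmf1* and *Akt2* (0.91 each). That profile is a plain mean of log2 CPM, so *Myh4*, which ranged most widely, weighs most in it, and *Myh2* ran against the others.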

How the data were processed

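RNA-seq of 20 TMJ libraries was used. The authors trimmed paired-end reads, used mm10 as the reference and ran featureCounts, and the deposited table holds the resulting raw counts per gene. The aligner, annotation release and use of strand are not given in the sources used here. Groups and replicate numbers came from the sample titles. Whether each library is a separate animal is not stated in the titles, so p-values measure the spread between libraries. The 10 genes and all gene lists were chosen with earlier results of these data known.

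Of 54532 genes, 54495 matched GENCODE M21 by identifier, which gave symbols, exon lengths and coordinates. Libraries were scaled by TMM, genes were filtered by filterByExpr and groups were compared with the quasi-likelihood test of edgeR 4.0.16 in R 4.3.3, with Benjamini-Hochberg adjustment over all tested genes and a threshold of 0.05. SE values were derived from the F statistic. CPM used TMM-scaled library sizes, and log2 CPM a prior count of 2. DESeq2 1.42.0, the tool of the study, served as an alternative. Shares used libraries with at least 50 counts and an exact permutation test. A count of 3, the floor, equals 0.111 to 0.269 CPM, for counting error only. No 2 libraries agreed within sampling noise (smallest chi-square per degree of freedom 32.9 over 190 pairs). The edgeR script was tested on simulated data.

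Besides the 10 genes, named genes were *Loxl2*, the slow partners, the 2 genes with the smallest p in each muscle list, and the 6 genes most alike in profile. Alternatives were other scalings, filters and tests, each library left out, a replicate block and covariates. Fits within libraries with or without Y-linked transcripts, without Control replicates 6 and 8, and with an indicator of Y-linked transcripts were added after the data were seen.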

Additional observations from a re-analysis of the deposited data

Results flagged for a closer look

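In the 8 Control libraries, a gap rule was applied to the log2 CPM of the 10 genes and to 8 isoform shares, and 3 values lay far from the other 7 libraries. By chance such a rule marks about 1 in 20 groups. *Myh2* was at 1020 CPM in Control replicate 8, against 4266 CPM or more in the other Control libraries. *Tnnt3* made up 99.8% of *Tnnt3* and *Tnnt1* in Control replicate 5, and *Tnni2* made up 99.8% of *Tnni2* and *Tnni1* in the same library. The slow partners therefore had their highest Control shares there, 0.214% and 0.194%.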

How the results depend on the processing

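The count of 4 fast-twitch genes lower was 2 with library totals as the only scaling, 1 with no filter, and 0 with the sarcomere list as covariate, alone or with the Y-linked indicator. It was 0 within libraries with Y-linked transcripts and 0 within those without, and 1 without Control replicates 6 and 8. Over all genes, the number lower fell too: from 1755 of 15984 to 245 with the sarcomere covariate, 79 of 16431 and 0 of 16109 within the libraries with and without Y-linked transcripts, and 687 of 16551 without Control replicates 6 and 8, both low in cartilage genes. Leaving out 1 library gave 1 to 7 of the 10, where 988 of 16254 to 2038 of 15912 genes were lower. DESeq2 called 6, where 2030 of 18931 genes were lower. Library totals moved the median of all genes by 0.138 on the log2 scale, to 0.12, and 849 of 15984 genes were lower. With no filter 1324 of 34192 genes were lower, over more tests. With the level of the Y-linked genes as covariate *Myh4* joined the 4. Over the 7 muscle lists the 40 lower genes became 4 with the sarcomere covariate, 2 with both covariates, 15 without Control replicates 6 and 8, 1 and 0 within the libraries with and without Y-linked transcripts, and 22 to 41 with 1 library left out. The sarcomere genes behind the covariate belong to these lists and were adjusted for their own mean, so part of that fall was fixed in advance. With both covariates 90 of all 15984 genes were lower.

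The replicate numbers did not pair the samples: same-numbered libraries had correlations of -0.36 to 0.17, and 0 Control libraries correlated best with their own number. With the replicate block over the 16 libraries numbered in both groups, 1 of the 10 genes and 17 of the list genes were lower. The same 16 libraries with no block also gave 1 of the 10. Over all 15571 genes, 686 were lower with the block and 1486 without it.

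At equal sarcomere level the sign turned for *Myh1* (0.03), *Myh4* (0.71), *Tnni2* (0.01), *Tnnc2* (0.17), *Actn3* (0.08) and *Myh8* (0.40), and with the Y-linked indicator added for *Tnni2* (0.02), *Myh2* (0.07), *Tnnt1* (0.26) and *Myh8* (0.47). *Myh2* was 0.48 and *Tnnt1* 0.97 within libraries with Y-linked transcripts, and *Myh8* 0.40 and *Myl4* -0.32 within those without. *Tnnt1* was 0.15 with the Y-linked genes as covariate and 0.09 with the block, where *Myh7* was -0.06. *Myh8* was 0.20 in DESeq2 and 0.14 without Control replicates 6 and 8. With 1 library left out, *Myh7* ranged from -0.25 to 1.02, *Tnnt1* from -0.43 to 0.21 and *Myh8* from -0.92 to 0.21. All are log2 fold changes that did not pass under these alternatives, and of these genes *Actn3* alone had passed without them. The cause was not tested.

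The *Myh1* share difference of 0.159 percentage points was 5.59 by group medians (p = 0.225, exact permutation test), -0.287 with raw counts, -0.00238 as log2 odds, -4.06 within libraries without Y-linked transcripts, -0.251 without Control replicates 6 and 8, -2.30 with the replicate block, and -1.93 to 2.78 with 1 library left out. The *Myh4* share difference was 0.684 by medians. The *Atp2a1* share passed as log2 odds (-0.953, adjusted p = 0.0499, exact permutation test) and in 4 of 20 fits with 1 library left out (-0.851 to -0.621). *Tnnc2* shares could not be computed within the Y-linked subsets or with the block. Depth did not limit the abundant genes, and *Tnnc2* rests on 31 counts or fewer per library.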
